A study of Mus musculus with 10 samples.

Results

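The genes described here drive cell division: 41 listed genes, of which 27 act in mitosis or mark dividing cells and 14 act in DNA replication. Each was read from the probe set that the array's annotation pairs with that symbol alone. Several such probe sets exist for 23 of the genes, and the brightest on average over the 10 arrays was then used. On this rule 39 of the 41 genes were measured, 25 of the 27 mitotic genes and all 14 replication genes, among 17097 genes in all. Ccnb1 and Nuf2 had no probe set paired with 1 symbol and are not analysed here. RNA came from epididymal white adipose tissue, a visceral fat depot attached to the epididymis. The mice were male and of a C57/Bl6 background. All mice, controls included, were 8 to 12 weeks old at the start and received a diet with 45% of its energy as fat for 16 weeks. There were 4 wild-type (WT) mice, 3 ASC-/- mice and 3 Casp1-/- mice, 1 Affymetrix HT_MG-430 PM array each. ASC-/- mice lack the inflammasome adaptor ASC (gene Pycard), although their genotype field reads ASC1 null, and Casp1-/- mice lack caspase-1, the protease of that complex. The labels name no promoter or cell type to which either null is limited.

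A dividing cell first licenses its origins with the MCM helicase, copies its DNA with the help of the PCNA clamp and newly made deoxynucleotides, and then separates the copies on the mitotic spindle under the control of cyclins, CDK1 and the anaphase-promoting complex. Transcripts of these genes are low in resting cells. Replication genes are switched on by E2F factors before S phase, whereas mitotic genes rise later through the CHR element and NF-Y (CCAAT) boxes, where MuvB complexes and NF-Y bind. Mature adipocytes do not divide in general, while macrophages and progenitors in the fat of obese mice are known to do so. The array reads RNA of the whole tissue, so that fewer dividing cells and less of the RNA per dividing cell cannot be told apart.

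The split between mitotic and replication genes is visible in their promoters, shown here because the classes are set apart throughout. RefSeq windows of 300 bases around the start (GRCm38.p6; 250 bases before it and 50 after) were given for 33 of the 39 genes. For 4 mitotic genes (Cdk1, the mitotic kinase; Ube2c, the ubiquitin-conjugating enzyme of the anaphase-promoting complex; Prc1, which bundles microtubules of the central spindle; Top2a, which untangles DNA) and 3 replication genes (Mcm5 and Mcm6, helicase subunits; Rrm1, the large subunit of ribonucleotide reductase), the 180 bases just before the start follow, 5' to 3' on the strand of the gene. Capitals mark the CHR element (TTTGAA or CTTGAA), the NF-Y box (CCAAT) and the E2F site (TTCCCGC or TTGGCGC), or the reverse complement of any of these. None of these motifs contains another.
Cdk1: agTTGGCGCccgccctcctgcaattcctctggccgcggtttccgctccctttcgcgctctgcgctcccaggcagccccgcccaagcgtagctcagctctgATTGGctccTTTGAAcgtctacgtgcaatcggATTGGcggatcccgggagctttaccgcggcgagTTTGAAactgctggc
Ube2c: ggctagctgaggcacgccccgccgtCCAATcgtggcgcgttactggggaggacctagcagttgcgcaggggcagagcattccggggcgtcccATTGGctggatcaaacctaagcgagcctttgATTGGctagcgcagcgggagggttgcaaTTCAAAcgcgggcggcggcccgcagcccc
Prc1: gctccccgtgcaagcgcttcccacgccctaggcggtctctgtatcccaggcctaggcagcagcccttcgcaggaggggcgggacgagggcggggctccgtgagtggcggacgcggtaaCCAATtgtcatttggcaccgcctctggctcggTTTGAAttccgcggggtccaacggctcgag
Top2a: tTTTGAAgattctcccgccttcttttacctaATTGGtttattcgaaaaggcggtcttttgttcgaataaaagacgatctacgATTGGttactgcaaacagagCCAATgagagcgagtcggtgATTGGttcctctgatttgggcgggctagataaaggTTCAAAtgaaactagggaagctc
Mcm5: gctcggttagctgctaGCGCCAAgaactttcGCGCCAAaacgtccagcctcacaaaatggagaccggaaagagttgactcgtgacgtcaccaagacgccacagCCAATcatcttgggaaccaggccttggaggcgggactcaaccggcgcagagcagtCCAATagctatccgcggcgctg
Mcm6: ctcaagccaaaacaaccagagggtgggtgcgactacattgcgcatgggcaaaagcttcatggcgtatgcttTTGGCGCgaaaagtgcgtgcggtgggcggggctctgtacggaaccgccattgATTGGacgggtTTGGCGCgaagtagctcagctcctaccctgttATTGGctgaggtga
Rrm1: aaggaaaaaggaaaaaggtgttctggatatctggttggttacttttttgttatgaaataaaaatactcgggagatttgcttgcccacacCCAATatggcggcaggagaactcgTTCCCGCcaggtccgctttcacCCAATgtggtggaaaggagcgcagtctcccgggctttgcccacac
On GRCm38.p6 these stretches are chr10:69352913-69353092 (minus strand), chr2:164769749-164769928 (plus), chr7:80294296-80294475 (plus, the later of its windows), chr11:99024190-99024369 (minus), chr8:75109329-75109508 (plus), chr1:128359706-128359885 (minus) and chr7:102441515-102441694 (plus). Both elements of mitotic promoters, TTTGAA or its reverse complement TTCAAA and CCAAT or its reverse complement ATTGG, stand in each of the 4 mitotic stretches. The 3 replication stretches carry E2F and CCAAT letters and no CHR.

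Counted over both strands of the whole windows, 16 of 20 mitotic genes (80%) held a CHR element, against 1 of 13 replication genes (7.69%) and 25.6% of the 13605 tested genes with a window. An E2F site was found in 7 of 13 replication genes (53.8%), 2 of 20 mitotic genes (10%) and 11.5% of tested genes. The NF-Y box was frequent in both, in 16 of 20 mitotic genes (80%) and 8 of 13 replication genes (61.5%), with 42.3% over tested genes. A CHR element and an NF-Y box occurred together in 14 of the 20 mitotic genes (70%) and in 10.2% of tested genes. Over all 32851 windows of the table, 28.2% held a CHR element, 37.4% an NF-Y box and 6.81% an E2F site. These matches describe letters only, and the arrays measured no binding.

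**Figure D1:**
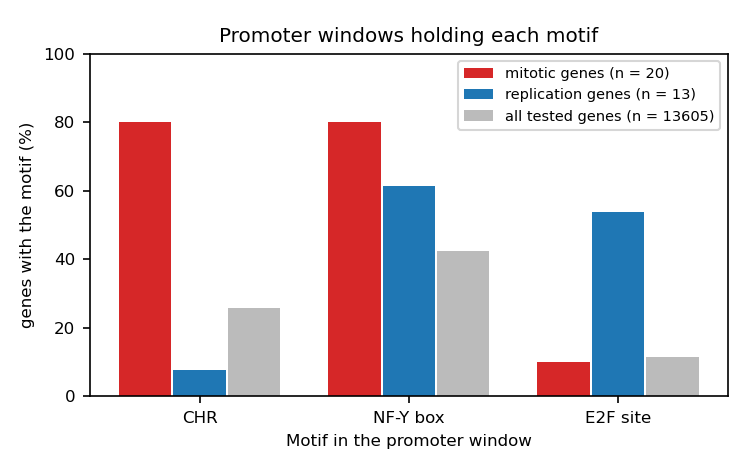
Share of genes (%) whose 300-base promoter window holds each motif on either strand, for 20 mitotic genes, 13 replication genes and 13605 tested genes with a window. The CHR bar is tall for mitotic genes (80%) and the E2F bar for replication genes (53.8%).

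The array values are log2 signals, on which 1 unit is a 2-fold difference. Control probe sets that should bind no mouse RNA had array medians of 2.91 to 3.15 and single values of up to 5.01, and a group mean within that range is given as a level with no fold. Correlations between arrays lay between 0.964 and 0.995. Both targeted genes were low in their own null group, with Pycard at 3.40 ± 0.27 (SD, n = 3) in ASC-/- against 9.82 ± 0.62 (n = 4) in WT, and Casp1 at 4.85 ± 0.14 (n = 3) in Casp1-/- against 9.32 ± 0.55 in WT. All 4 measured adipocyte markers were bright in every group (means per array of 12.4 to 13.1). Some arrays stood apart. The 24 probe sets for bacterial spike-in RNA averaged 7.51 to 8.07 in the Casp1-/- arrays and WT replicate 1, and 5.76 to 6.50 in all others. Actin signal was higher at the 3' end than at the 5' end by 0.82 to 1.05 in those 4 arrays and in WT replicate 2, and by 0.46 to 0.67 in the rest. On ASC-/- replicate 1 the 10 testis germ cell markers averaged 8.13 (Tnp1 11.05, Prm1 10.70). WT replicate 1 came next at 5.83 (Tnp1 6.99, Prm1 7.17), and the remaining arrays lay at 4.18 to 5.23. Results are therefore given also with the spike-in set as a block, which leaves Casp1-/- against WT resting on WT replicate 1, and without single arrays.

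**Figure D2:**
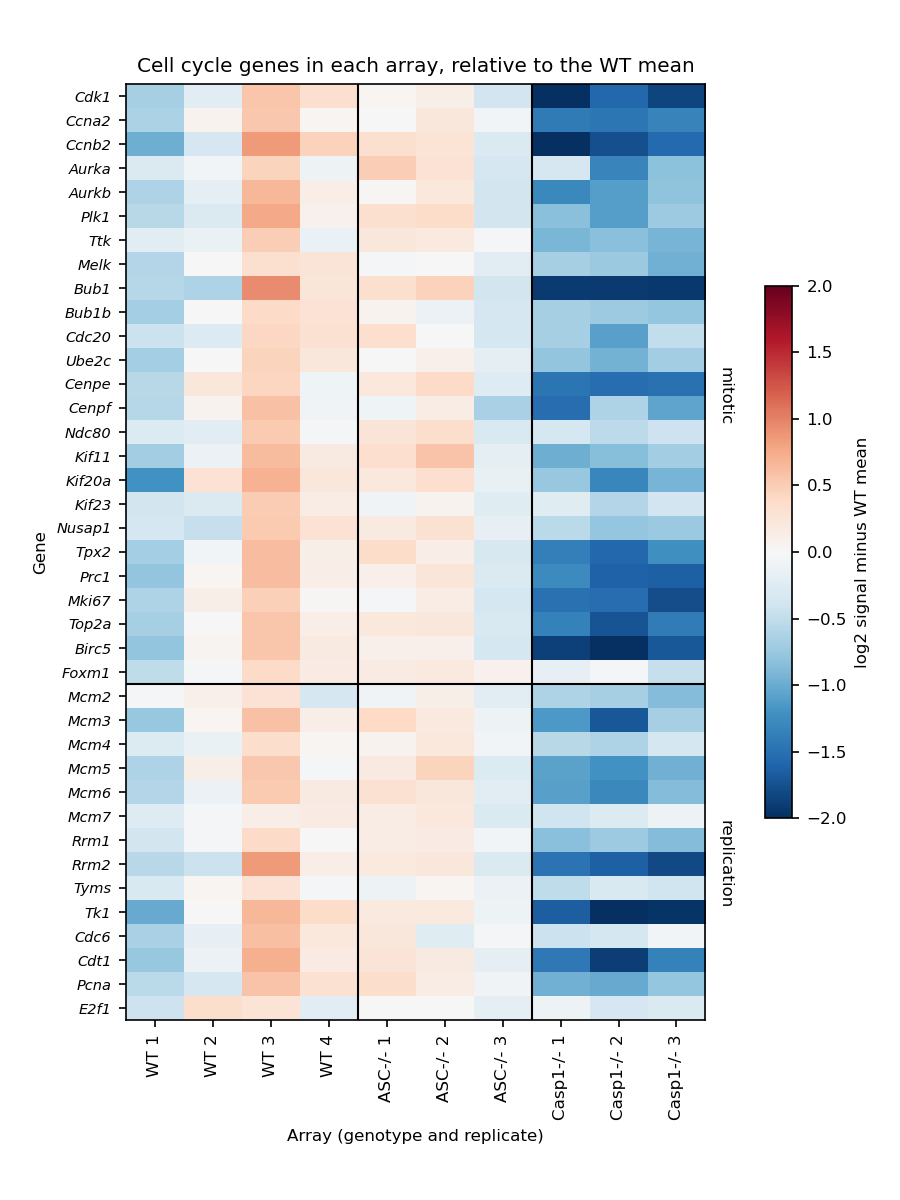
Signal of each of the 39 genes (rows; mitotic above the line, replication below) in each of the 10 arrays (columns), as the log2 difference from the WT mean of that gene. The 3 Casp1-/- columns are blue for most genes, WT replicate 1 is paler blue, and WT replicate 3 is red for nearly all genes.

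Cell cycle genes were lower in Casp1-/- fat than in WT fat. The fitted difference was below 0 for all 39 genes, with a median of -0.91, while the median over all 17097 genes was 0.04. Past the threshold, an adjusted p under 0.05 (limma, Benjamini-Hochberg over all genes), were 20 of the 39 genes, 13 mitotic and 7 replication, all lower, against 3.86% of all genes called lower and 4.31% called higher. Every Casp1-/- array lay below every WT array for 29 of the 39 genes, as for 9.6% of all genes. Many signals were dim: the Casp1-/- mean lay within the background range for 16 genes and the WT mean for 7. Among the called genes, 13 had means above that range in both groups, and they fell by 1.64-fold (Mcm2) to 3.87-fold (Tk1). The count depends on single arrays. It was 0 without Casp1-/- replicate 2, 5 without Casp1-/- replicate 3, 7 without Casp1-/- replicate 1, 9 without WT replicate 4 and 31 without WT replicate 1. With the spike-in set as a block, 0 of 39 genes passed, 35 stayed below WT and the median was -0.45. Within the 4 high spike-in arrays WT is 1 array and the spread comes from Casp1-/- alone, so no test is read from them. The fitted differences there equal those with the block. With the actin 3' minus 5' signal as a covariate 22 passed, with a median of -0.76. The adjustment runs over all genes, so each of these counts also depends on how many other genes pass in the same fit. The share of all genes called in these further fits is not set beside them here.

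**Figure D3:**
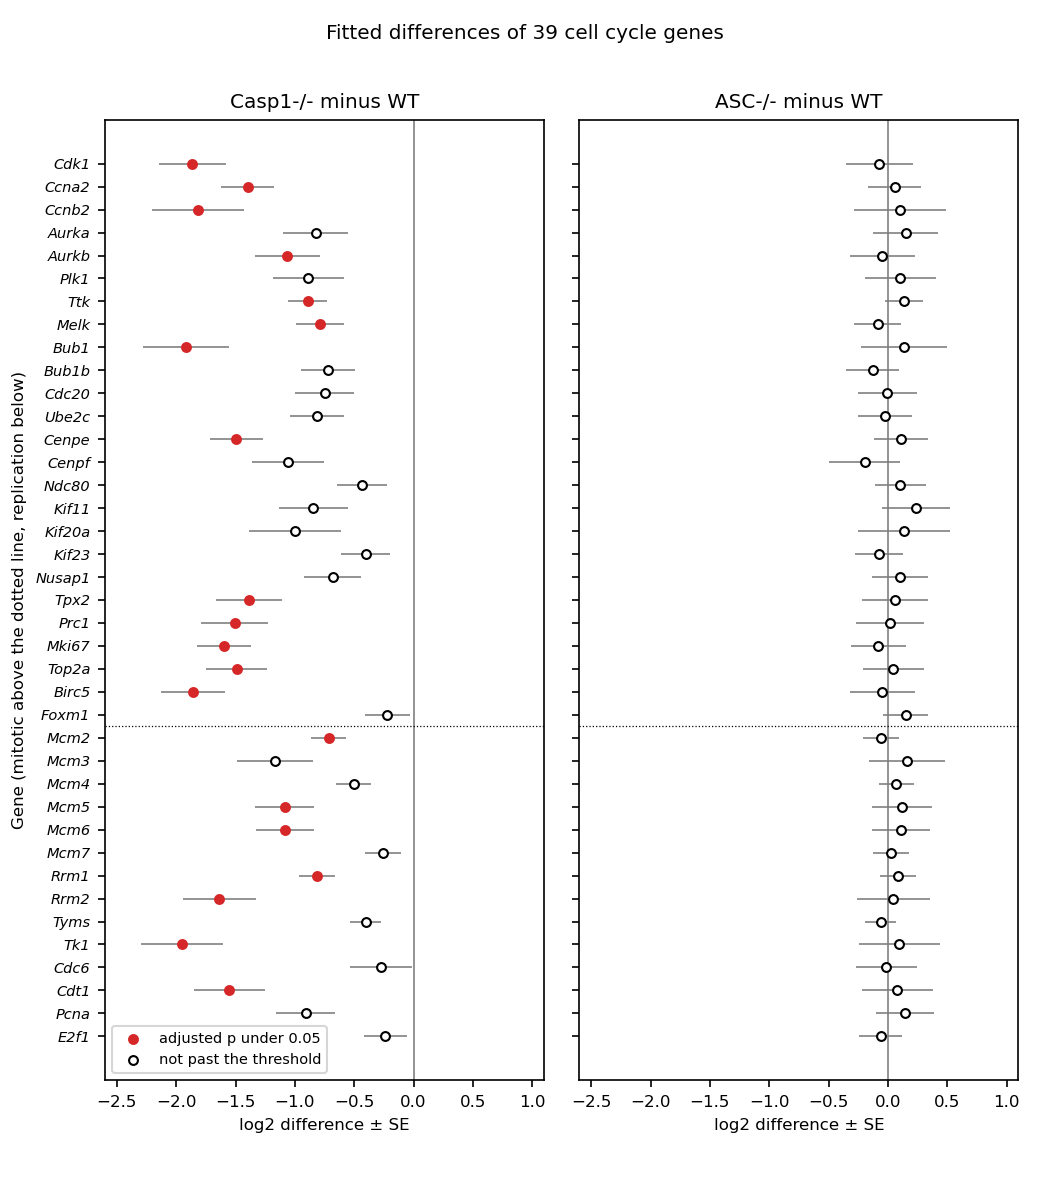
Fitted log2 difference ± SE for each gene, Casp1-/- minus WT (left) and ASC-/- minus WT (right), with filled red points for an adjusted p under 0.05 (limma over all genes). On the left all 39 points lie below 0 and 20 are filled. On the right no point is filled and no point lies farther from 0 than 0.24.

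Among the cyclins and their kinase, all 3 measured genes fell (median -1.82). Cdk1 encodes the kinase that drives entry into mitosis, and its signal was 7.31, 7.77, 8.53 and 8.30 in WT replicates 1 to 4. It was 8.02, 8.09 and 7.60 in the ASC-/- arrays and 5.80, 6.40 and 6.14 in the Casp1-/- arrays. The WT and ASC-/- values interleave, and every Casp1-/- value is lower than all of them. The difference between Casp1-/- and WT was -1.86 ± 0.28 (SE), a 3.64-fold fall (limma adjusted p = 0.011), and with the spike-in block it was -1.20 ± 0.33 (limma adjusted p = 0.17). Ccna2, cyclin A2 of S phase and early mitosis, fell 2.64-fold (limma adjusted p = 0.012). Ccnb2, a B-type cyclin and partner of CDK1, fell 3.52-fold, from 6.84 ± 0.82 to 5.02 ± 0.29 (limma adjusted p = 0.027).

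In Casp1-/-, 3 of the 5 mitotic kinases passed and all 5 were lower. Aurka, which matures the spindle poles, was the brightest of them. Its WT values were 5.36, 5.60, 6.09 and 5.54, its ASC-/- values 6.15, 5.94 and 5.32, and its Casp1-/- values 5.31, 4.33 and 4.83. Casp1-/- replicate 1 sits just under the lowest WT array, and the difference of -0.83 ± 0.27 missed the threshold (limma adjusted p = 0.091). Aurkb, the kinase of the chromosomal passenger complex, went from 5.46 ± 0.54 in WT to 4.40 ± 0.24 in Casp1-/- (limma adjusted p = 0.047). Ttk, the checkpoint kinase MPS1, went from 4.77 ± 0.33 to 3.87 ± 0.05 (limma adjusted p = 0.019). Melk went from 4.77 ± 0.41 to 3.98 ± 0.15 (limma adjusted p = 0.044). Plk1, a kinase acting from mitotic entry to cytokinesis, had 4.83 ± 0.57 and 3.94 ± 0.19 and did not pass (limma adjusted p = 0.096). Apart from Aurka and Aurkb in WT, these kinase means lie within the background range, so the size of the differences is uncertain.

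The spindle assembly checkpoint and kinetochore group had 2 of 7 measured genes past the threshold. Bub1, a checkpoint kinase at kinetochores, was at 4.86, 4.82, 6.39 and 5.68 in WT and between 3.51 and 3.53 in all 3 Casp1-/- arrays, a level near the background medians (limma adjusted p = 0.020). Cenpe, a kinesin of the kinetochore, went from 5.93 ± 0.43 to 4.44 ± 0.03 (limma adjusted p = 0.011). Ube2c gave 7.73, 8.42, 8.85 and 8.64 in WT, 8.41, 8.51 and 8.23 in ASC-/-, and 7.62, 7.46 and 7.71 in Casp1-/-. WT replicate 1 lies barely above the highest Casp1-/- array. The difference of -0.81 ± 0.23 did not pass (limma adjusted p = 0.057) and shrank to -0.13 ± 0.18 with the spike-in block. Cdc20, the activator of the anaphase-promoting complex, differed by -0.75 (limma adjusted p = 0.091), Bub1b by -0.72 (adjusted p = 0.078) and Cenpf by -1.06 (adjusted p = 0.060). Ndc80, which holds microtubules at the kinetochore, differed by -0.43 (limma adjusted p = 0.22), with a Casp1-/- mean of 4.65 within the background range.

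Of 6 kinesin and spindle genes, 2 passed and all 6 were lower in Casp1-/-. Prc1 had WT values of 6.28, 7.11, 7.69 and 7.21, ASC-/- values of 7.17, 7.32 and 6.78, and Casp1-/- values of 5.79, 5.46 and 5.44. The Casp1-/- arrays are below all others, with WT replicate 1 next. Its fall was 2.84-fold (-1.51 ± 0.29, limma adjusted p = 0.020). Tpx2, which builds microtubules around chromosomes, went from 6.28 ± 0.54 to 4.90 ± 0.17 (limma adjusted p = 0.023). Nusap1 (-0.68), Kif11, Kif23 and Kif20a did not pass. Kif11 (4.72 in WT, 3.88 in Casp1-/-) and Kif23 (3.52 in WT, 3.11 in Casp1-/-) had means within the background range. So did Kif20a in Casp1-/- (4.41). For Kif20a, a kinesin of cytokinesis, WT replicate 1 overlapped with the Casp1-/- group: WT replicate 1 was at 4.19 and the other WT arrays at 5.64 to 6.10, while the Casp1-/- arrays were at 4.10 to 4.66.

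The markers of proliferation fell with the cyclins, 3 of 4 passing. Mki67, the gene of the Ki-67 antigen used to stain cycling cells, read 7.67, 8.39, 8.76 and 8.30 in WT. In ASC-/- it read 8.26, 8.42 and 7.92, and in Casp1-/- 6.79, 6.76 and 6.51. No Casp1-/- array reached the lowest WT or ASC-/- array, and the fall was 3.02-fold (-1.60 ± 0.23, limma adjusted p = 0.011). Birc5, survivin of the passenger complex, fell 3.63-fold, from 7.80 ± 0.57 to 5.94 ± 0.16 (limma adjusted p = 0.011). Top2a was at 7.14, 7.79, 8.35 and 7.93 in WT, at 8.00, 8.03 and 7.50 in ASC-/-, and at 6.45, 6.08 and 6.40 in Casp1-/-. It fell 2.81-fold (-1.49 ± 0.26, limma adjusted p = 0.016), with all Casp1-/- arrays below the rest. With the spike-in block these 3 differences were -0.98, -1.07 and -0.83, in that order, and none passed. Foxm1, a transcription factor of mitotic genes, was near background in every group (3.85 ± 0.38 in WT, 3.63 ± 0.22 in Casp1-/-, limma adjusted p = 0.49).

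In the MCM helicase, the ring that opens DNA at origins, all 6 subunits were lower in Casp1-/- (median -0.90) and 3 passed. Mcm6 was the brightest, at 8.14, 8.60, 9.24 and 8.89 in WT, 9.02, 8.94 and 8.51 in ASC-/- and 7.64, 7.42 and 7.85 in Casp1-/-. All Casp1-/- arrays are lower than all others, and the fall was 2.12-fold (-1.08 ± 0.24, limma adjusted p = 0.031). Mcm5 also fell 2.12-fold (limma adjusted p = 0.034) and Mcm2 fell 1.64-fold (limma adjusted p = 0.025). Mcm3 (-1.17, limma adjusted p = 0.054), Mcm4 (-0.50, adjusted p = 0.063) and Mcm7 (-0.26, adjusted p = 0.30) did not pass. The Casp1-/- mean of Mcm3, 4.67, lies within the background range. For Mcm7 the WT values of 7.25 to 7.66 overlapped with Casp1-/- values of 7.11 to 7.40.

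All 4 enzymes that supply nucleotides had lower means in Casp1-/-, and 3 passed. Tk1, the thymidine kinase of S phase, fell 3.87-fold, from 7.09 ± 0.73 to 5.14 ± 0.30 (limma adjusted p = 0.017). Rrm2, the small subunit of ribonucleotide reductase, went from 6.34 ± 0.64 to 4.70 ± 0.16 (limma adjusted p = 0.020). Rrm1 was at 7.51, 7.85, 8.25 and 7.88 in WT, at 8.03, 8.03 and 7.81 in ASC-/- and at 7.03, 7.14 and 7.01 in Casp1-/-. Its 3 Casp1-/- arrays lie close together below all others, and it fell 1.76-fold (-0.81 ± 0.15, limma adjusted p = 0.019). Tyms, thymidylate synthase, had a difference of -0.40 (limma adjusted p = 0.083).

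Of the 4 genes for licensing factors, the clamp and E2F1, Cdt1 alone, which loads the helicase, passed, with a 2.93-fold fall (limma adjusted p = 0.021). Pcna, the sliding clamp, was the brightest gene of the list, at 11.30, 11.49, 12.41 and 12.13 in WT, 12.18, 11.98 and 11.76 in ASC-/- and 10.88, 10.83 and 11.06 in Casp1-/-. Its Casp1-/- arrays were below all WT arrays, yet the WT arrays themselves spread over more than 1 unit and the difference of -0.91 ± 0.25 missed the threshold (limma adjusted p = 0.054). It was -0.38 ± 0.31 with the spike-in block. Cdc6, another loading factor, had means within the background range (4.55 in WT, 4.28 in Casp1-/-, limma adjusted p = 0.54). E2f1 differed by -0.24 (limma adjusted p = 0.43). With the spike-in block the fitted differences of Kif20a, Foxm1, Cdc6 and E2f1 changed sign to 0.22, 0.29, 0.38 and 0.18, none past the threshold.

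Averaged per array, mitotic genes were at 6.12 ± 0.48 in WT, 6.15 ± 0.27 in ASC-/- and 5.01 ± 0.05 in Casp1-/-. Replication genes were at 7.39 ± 0.41, 7.44 ± 0.18 and 6.49 ± 0.11. The mean of mitotic genes minus that of replication genes was -1.36 to -1.19 in WT, -1.38 to -1.20 in ASC-/- and -1.53 to -1.42 in Casp1-/-. The Casp1-/- arrays thus lie below all others on this difference, by 0.21 on average against WT. Since more mitotic than replication genes sit within the background range in Casp1-/- (13 of 25 against 3 of 14), the 2 means do not have the same room to fall. Whether the classes differ in their fall was not tested. Mean signals of markers of several cell types also differed in Casp1-/-, lower for some types and higher for others. Their part in the result was not tested. All 15 macrophage markers were above background in each group. In Casp1-/- 14 were lower (median -1.29), 9 of them past the threshold, and Cd163 was higher by 0.59 without passing. Their mean per array was 9.04 to 9.25 in Casp1-/-, 9.69 to 10.93 in WT and 10.22 to 10.56 in ASC-/-. All 5 mast cell markers had lower means in Casp1-/- (median -1.56) and none passed. Their mean per array was 8.14 and 7.55 in WT replicates 3 and 4, 6.12 to 6.41 in the other WT arrays, 6.16 to 7.37 in ASC-/- and 5.36 to 6.49 in Casp1-/-. All 5 endothelial markers had higher means in Casp1-/- (median 0.53), none past the threshold. Of 5 mesothelial markers, 4 had higher means and 1 a lower mean in Casp1-/- (median 0.87), none past the threshold. Among 6 adipocyte progenitor markers, 5 had higher means and 1 a lower mean (median 0.11), none past the threshold.

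**Figure D4:**
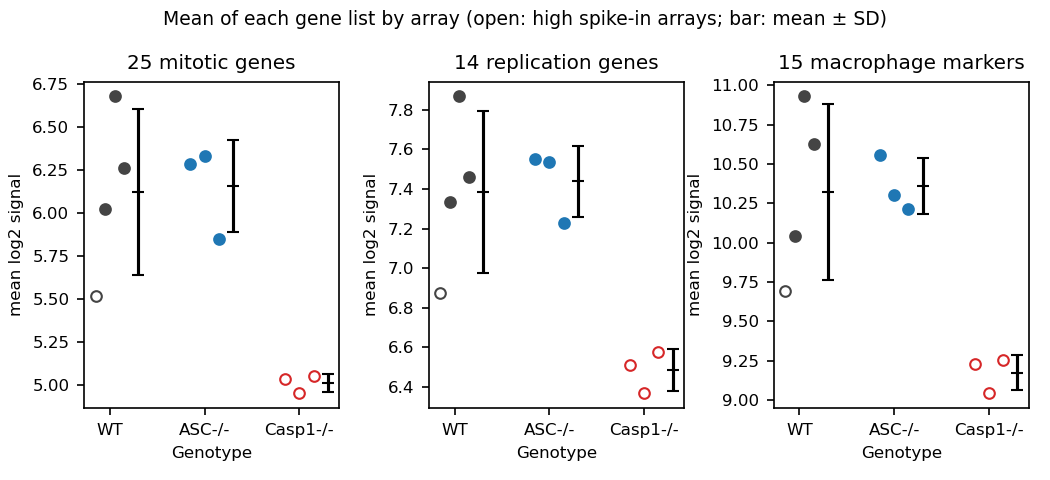
Mean log2 signal per array of the 25 mitotic genes, the 14 replication genes and the 15 macrophage markers, by genotype, with mean ± SD as bars and open circles for the 4 high spike-in arrays. The Casp1-/- arrays are lowest in each panel, WT replicate 1 is the lowest WT array, and the ASC-/- arrays lie within the WT range.

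No difference between ASC-/- and WT fat in these genes was larger than the spread between mice. None of the 39 genes passed (limma with Benjamini-Hochberg adjustment, smallest adjusted p = 1.00; 0.0175% of all genes were called higher and 0.0175% lower), and none had an unadjusted p under 0.05. The median difference was 0.06, with 25 genes above WT. The ASC-/- and WT arrays overlapped for all 39 genes (1.86% of all genes lay apart below WT and 1.33% above), and each ASC-/- mean lay within the range of the WT arrays. No fitted difference was farther from 0 than 0.24. For Cdk1 the difference was -0.07 ± 0.28, for Mki67 -0.08 ± 0.23, for Mcm6 0.11 ± 0.24 and for Pcna 0.14 ± 0.25 (SE), and differences of the size of these errors could not have been resolved. The side of 0 on which the genes fell depended on single arrays. Without WT replicate 1, as with the spike-in block, 4 of 39 genes were above WT and the median was -0.15. Leaving out WT replicate 3 in its place gave 37 genes and 0.24. Without ASC-/- replicate 1, the array with the highest germ cell markers, 16 genes were above WT and the median was -0.02. No gene passed in any of these fits.

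Set directly against each other, ASC-/- fat was higher than Casp1-/- fat for all 39 genes (median 1.03, all genes -0.04). Of these, 20 passed (11 mitotic, 9 replication; limma adjusted p under 0.05), against 3.85% of all genes called higher and 3.54% called lower, and the arrays did not overlap for 35, as for 17.3% of all genes. This comparison uses the same Casp1-/- arrays as that with WT and is not a separate observation of them. Cdk1 was 3.46-fold higher (1.79, limma adjusted p = 0.014), Mki67 2.86-fold (1.51, adjusted p = 0.013) and Tk1 4.13-fold (2.05, adjusted p = 0.017). Pcna and Mcm3, which did not pass against WT, passed here (Pcna 2.08-fold, limma adjusted p = 0.044; Mcm3 1.33, limma adjusted p = 0.047). All 3 ASC-/- arrays belong to the low spike-in set and all 3 Casp1-/- arrays to the high one, so genotype and set cannot be told apart in this comparison other than through the WT arrays. With the block, 0 genes passed and the median was 0.35. Without ASC-/- replicate 1, ASC-/- replicate 2 or Casp1-/- replicate 2 the count was 0, and without Casp1-/- replicate 1 or 3 it was 6 and 5. Such counts also depend on how many other genes pass in the same fit.

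The genes moved together from mouse to mouse within a genotype. WT replicate 1 was the lowest WT array for 36 of the 39 genes and WT replicate 3 the highest for 37, and ASC-/- replicate 3 was the lowest ASC-/- array for 38. The median distance from the lowest to the highest WT array was 1.12, and the median difference between Casp1-/- and WT was -0.91. Over the 7 WT and ASC-/- arrays, all 741 pairs of genes correlated positively, with a median r of 0.86. The median was 0.87 within mitotic genes, 0.84 within replication genes and 0.85 across them, so the pairs within a class were hardly more alike than those across. These correlations pool WT and ASC-/- arrays without removing the genotype means, share the same 7 arrays and are a description. No value over pairs of other genes was taken. WT replicate 1, the lowest WT array for most genes, is also the WT array of the high spike-in set.

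Adgre1 encodes F4/80, a surface marker of mouse macrophages. It read 10.25, 10.52, 11.82 and 11.38 in WT, 11.54, 11.19 and 10.91 in ASC-/- and 9.10, 8.83 and 9.13 in Casp1-/-, where it was 3.92-fold lower than in WT (-1.97 ± 0.34, limma adjusted p = 0.016). With the spike-in block this was 2.35-fold and did not pass (-1.23 ± 0.43, limma adjusted p = 0.29). Because the Casp1-/- arrays form a cluster apart, no correlation is given over all 10 arrays. A slope on Adgre1 was fitted within genotype instead, in which the genotype means take up differences between groups. It was positive for all 39 genes, with a median of 0.62 log2 units per log2 unit of Adgre1 (all genes -0.01) and a range from 0.05 for Mcm2 to 1.04 for Ccnb2. Past the threshold were 27 genes, 18 mitotic and 9 replication (limma adjusted p under 0.05), against 9.01% of all genes rising and 8.06% falling with Adgre1. For Pcna the slope was 0.70 ± 0.06 (limma adjusted p = 0.00047), for Mcm6 0.65 ± 0.10 (adjusted p = 0.0041) and for Bub1 0.97 ± 0.15 (adjusted p = 0.0045). For Cdk1 it was 0.66 ± 0.17 (limma adjusted p = 0.031), whereas Mki67 at 0.47 ± 0.16 did not pass (limma adjusted p = 0.085). The count rests on the WT arrays at the ends: leaving out WT replicate 3 gave 2 genes and leaving out WT replicate 1 gave 11. It was 0 with the actin 3' minus 5' signal as a covariate, where the median slope was 0.55. How many other genes pass in the same fit also bears on these counts, and a loss limited to these genes cannot be read from them. The 5 mast cell markers also had positive slopes on Adgre1 (median 1.44, 2 past the threshold), and their part in these slopes was not tested.

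**Figure D5:**
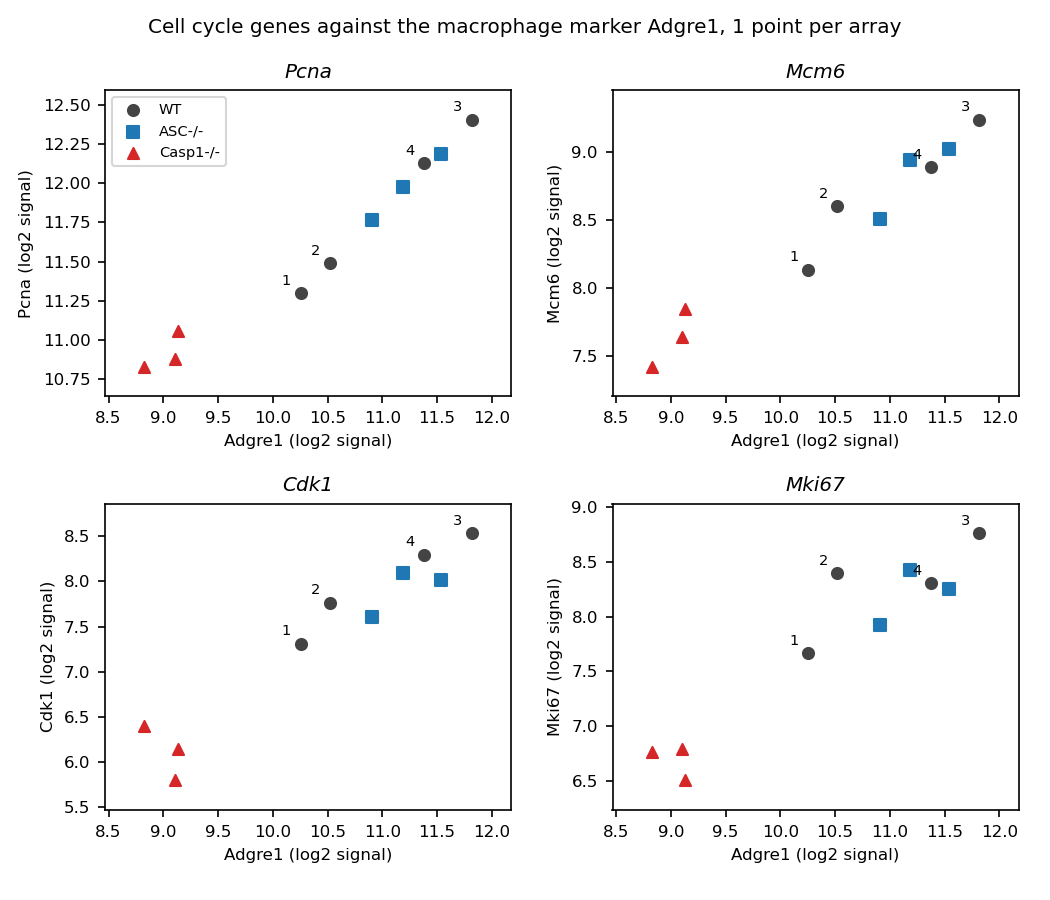
Log2 signal of Pcna, Mcm6, Cdk1 and Mki67 against that of Adgre1, 1 point per array, with WT replicates numbered, both axes in log2 units. Pcna rises in the same order as Adgre1 over WT and ASC-/- arrays, whereas Mki67 has WT replicate 2 well above the line of the others, and the Casp1-/- arrays form a separate cluster at the lower left.

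Over the 7 WT and ASC-/- arrays, r with Adgre1 was positive for all 39 genes (median 0.88, all genes -0.06), and 13 genes passed after adjustment over all genes by an exact permutation test of Pearson's r, against 6.70% of all genes. By Spearman's rho 3 passed (Pcna, Ccnb2 and Cdc20), against 4.78%. Pcna followed Adgre1 most closely, with r = 0.999 (exact permutation p = 0.000198, the smallest that 5040 orders allow; adjusted p = 0.015) and rho = 1.00 (adjusted p = 0.016). Its r was 0.996 without WT replicates 1 and 2, the arrays farthest from the median of Adgre1. Mcm6 had r = 0.946 (exact permutation p = 0.0016, adjusted p = 0.030) and rho = 0.929 (adjusted p = 0.061), with r = 0.942 without those arrays. Cdk1 had r = 0.905 and rho = 0.857 (exact permutation, adjusted p = 0.056 and 0.12), and r = 0.864 without those arrays. Mki67 had r = 0.728 and rho = 0.571 (exact permutation, adjusted p = 0.20 and 0.43), and r = 0.839 without them. Mcm2 had the lowest value, r = 0.139 (exact permutation, adjusted p = 0.87), and r = 0.541 without those arrays. Within the 6 low spike-in arrays the median r was 0.80 and 38 genes were positive, with E2f1 at -0.11. No gene of the array passed there after adjustment, and 720 orders give no p below 0.0014. The unadjusted exact p was under 0.05 for 17 of the 39 genes, and for 3890 of all 17096 genes, r of either sign.

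With Adgre1 as a covariate in the genotype comparison, 0 of 39 genes passed between Casp1-/- and WT, with 0 unadjusted and a median of 0.15. Adgre1 itself differed between these groups (by -1.97, and by -1.23 with the spike-in block), so the part of genotype and that of macrophage content cannot be told apart in that fit. The 14 genes that passed both in the genotype comparison and on the slope included Cdk1, Ccnb2, Bub1, Birc5, Tk1 and Cdt1. Ccna2, Ttk, Cenpe, Mki67, Mcm2 and Mcm5 passed in the genotype comparison and not on the slope, and Pcna, Cdc20, Plk1 and 10 others on the slope and not between genotypes. Whether the 2 measures differ for these genes was not tested.

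Other genes of the cell cycle were read from lists chosen alongside. Of 45 further mitotic genes, 44 had lower means in Casp1-/- (median -0.66), of which 17 passed, and none passed as higher. Among them were Hmmr, which went from 6.29 ± 0.50 to 4.59 ± 0.06, and Aspm, a spindle-pole protein, which went from 5.98 ± 0.52 to 4.50 ± 0.23. Pbk fell 2.68-fold and Cep55, needed for the final cut of cytokinesis, 2.64-fold (limma adjusted p = 0.016 and 0.012). Of 37 further replication genes, 26 had lower means and 11 higher ones (median -0.31), and 9 passed as lower and none as higher. The flap endonuclease Fen1 fell 2.03-fold (limma adjusted p = 0.047), the histone chaperone Asf1b 1.95-fold (adjusted p = 0.016) and the licensing inhibitor Gmnn 1.91-fold (adjusted p = 0.045). Mcm10, at 5.01 ± 0.29 in WT and 3.99 ± 0.36 in Casp1-/-, passed as well (limma adjusted p = 0.026).

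Regulators of the step from G1 to S phase were read in the same comparison, in which 3.86% of all genes were called lower and 4.31% higher. Of 10 G1 cyclins and kinases, 6 lay below WT (down to -0.92) and none of them passed (list median -0.03). Ccnd3, a D-type cyclin, rose 1.59-fold and passed (limma adjusted p = 0.038). Of 10 CDK inhibitors and pocket proteins, Cdkn1b, the inhibitor p27, fell 1.84-fold (limma adjusted p = 0.035) and Cdkn2c, the inhibitor p18, rose 1.93-fold (limma adjusted p = 0.017), with a list median of -0.01. In the E2F family and the MuvB complex, 1 of 13 genes passed, Lin52, a MuvB subunit that rose 1.60-fold (median -0.04; limma adjusted p = 0.012). None of 13 p53 target genes passed (median 0.02; limma, 0 genes in either direction). Of 9 growth factor receptors and regulators of macrophage proliferation, Gata6, a transcription factor of peritoneal macrophages, rose 1.63-fold (limma adjusted p = 0.023). In this list 4 genes had lower means and 5 higher ones (median 0.01), and none passed as lower. The largest fall was that of Csf1r, at -0.999 (limma adjusted p = 0.066). Between ASC-/- and WT no gene of these lists passed.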

How the data were processed

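Log2 signals were deposited by the authors, who made them with RMA per the submitters' processing notes, with no version named. RMA gives all arrays one distribution and compresses differences near background. For the genome build the sources used here give nothing. Of 45141 probe sets, 28898 were paired with 1 symbol, which gave 17097 genes with no filter on dim ones.

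R 4.3.3 and its package limma 3.58.1 served for the fits, in which all 10 arrays entered with a mean for each genotype. Tests were two-sided and adjusted by Benjamini-Hochberg over all genes. The slope on Adgre1 came from the same fit with Adgre1 as a term. Correlations used exact permutations and were also computed over 10 arrays, which are not given. The code was tested on simulated data. Figures were drawn with matplotlib 3.10.9 in Python 3.11.15.

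Genes given in every array were the brightest of each role group plus Mki67, Top2a and Pcna. Further values are given for other members. From each wider list up to 4 genes past the threshold with the largest difference were named. The genes and lists were chosen with earlier results of these data known. The labels give each mouse 1 array. The number of arrays limits the precision. Promoter letters are from RefSeq (GRCm38.p6). The alternatives were other normalizations, filters, probe set choices, empirical Bayes settings, array weights, blocks, covariates and left-out arrays.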

Additional observations from a re-analysis of the deposited data

Results flagged for a closer look

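Ttk stood out in 1 WT array: WT replicate 3 was at 5.26, and the other 3 WT arrays lay between 4.53 and 4.64. WT replicate 3 was also the highest WT array for 37 of the 39 genes. This was the only one of 43 measures (the 39 genes, Adgre1 and 3 means per array) in which a WT array lay this far from its neighbours, and chance flags about 1 in 20. Without WT replicate 3, 17 of the 39 genes passed between Casp1-/- and WT, against 20 with it.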

How the results depend on the processing

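Between Casp1-/- and WT, all 39 genes stayed below WT under quantile normalization, centring, other choices of probe set and each left-out array, with medians from -1.09 to -0.73 over the left-out arrays. The count of 20 changed more than the direction. Because the adjustment runs over all genes, each count in this paragraph also depends on how many other genes pass in that fit. With array weights it was 32, where 8.05% of all genes were called lower, against 3.86% in the main fit. It was 13 with only the compared groups, 0 with the spike-in block or the Adgre1 covariate, and 0 to 31 without single arrays. The labels do not say that replicate numbers pair the mice. In their deviations from group means, same-numbered arrays correlated at -0.26 to 0.19 and differently numbered ones at -0.38 to 0.39. With so few arrays these values cannot settle whether the numbers pair them. With the replicate number as a block, 0 genes passed between Casp1-/- and WT, 0 between ASC-/- and WT, 0 between ASC-/- and Casp1-/- and 23 on the slope. The count of 20 between ASC-/- and Casp1-/- was 33 with array weights, where 9.36% of all genes were called higher, against 3.85% in the main fit. It was 5 with the actin covariate, 0 with the spike-in block or the Adgre1 covariate and 0 to 28 without single arrays. The 27 genes on the slope were 11 with the spike-in block, 0 with the actin covariate and 2 to 30 without single arrays. No gene passed between ASC-/- and WT under any setting. Signs changed, never past the threshold, with the spike-in block. Between Casp1-/- and WT, where the high spike-in arrays alone give the same values, Kif20a was at 0.22, Foxm1 at 0.29, Cdc6 at 0.38 and E2f1 at 0.18. Between ASC-/- and Casp1-/-, Melk was at -0.084, Bub1b at -0.30, Ube2c at -0.12, Kif20a at -0.48, Kif23 at -0.17, Foxm1 at -0.31, Mcm7 at -0.055, Tyms at -0.058, Cdc6 at -0.61 (-0.18 with the actin covariate) and E2f1 at -0.38. The slope of E2f1 was -0.037 with the block and -0.037 to 0.38 without single arrays, and that of Mcm2 was -0.22 to 0.17. The causes were not tested. Of 32 further probe sets of these genes, 25 were lower in Casp1-/- and 7 were not (Cdt1, Cenpf, Foxm1, Kif23, Mcm5, Top2a and Tyms). These 7 were dim, with means over all arrays of 2.99 (Foxm1) to 3.58 (Cenpf), within the background range. Further probe sets with means above that range were all lower, from -0.07 (E2f1) to -1.67 (Ccna2). The median difference over the 32 was -0.16, nearer to 0 than the -0.91 of the probe sets used.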
